A study of Mus musculus with 12 samples.

Results

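The 10 genes described here mark lipid-associated macrophages, a macrophage state of obese adipose tissue. They are Trem2, Tyrobp, Cd9, Spp1, Gpnmb, Mmp12, Itgax, Atp6v0d2, Lgals3 and Lyz2. They were chosen by gene symbol, as the rows whose mouse Ensembl identifier carries one of these symbols, and all 10 were present among the 23474 genes of the expression table. Expression was measured by RNA-seq of epididymal white adipose tissue (eWAT) of male C57BL/6J mice, with 3 libraries in each of 4 groups. Feeding began at an age of 5 weeks and went on for 12 weeks, so the tissue came from animals of 17 weeks. The ND group received a normal diet and the HFD group a high-fat diet. The GT group received the high-fat diet with 0.25% (w/w) ethanol extract of green tea, and the TJ group the high-fat diet with 3% (w/w) Taeeumjowitang, an herbal mixture. The HFD, GT and TJ groups thus share the high-fat diet.

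In obesity, macrophages gather around dying adipocytes in so-called crown-like structures, where they take up and break down lipid. TREM2 is a lipid-sensing receptor on their surface that signals through the adaptor protein TYROBP (DAP12), and macrophages in this state express genes of lysosomes, lipid handling and matrix breakdown. In whole tissue, fewer macrophages and less RNA per macrophage cannot be told apart.

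The depth of the libraries, estimated from the smallest steps between FPKM values (fragments per kilobase of transcript, scaled to the depth of the library), ran from 10.0M to 20.0M fragments. ND replicate 1 stood apart. Its summed level of 8 male germ cell genes was 96901 FPKM, against 0.602 to 2760 in the other libraries, and that of 8 genes of the epididymis epithelium was 13777 FPKM, against 0.0388 to 1296. Its 10 adipocyte genes summed to 7216 FPKM, against 17559 to 68754 in the others. The highest of these adipocyte sums was in TJ replicate 2. The epididymis sum of 1296 FPKM was in HFD replicate 2, the lowest HFD library for all 10 members, against at most 12.6 FPKM in the libraries other than this one and ND replicate 1. Counts of called genes below are also given without ND replicate 1 for HFD against ND and without TJ replicate 2 for TJ against HFD. Counts of members are also given without HFD replicate 2. The part of other tissue or cells in these libraries was not tested. The 13 general macrophage genes summed to 343 to 2655 FPKM.

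**Figure D1:**
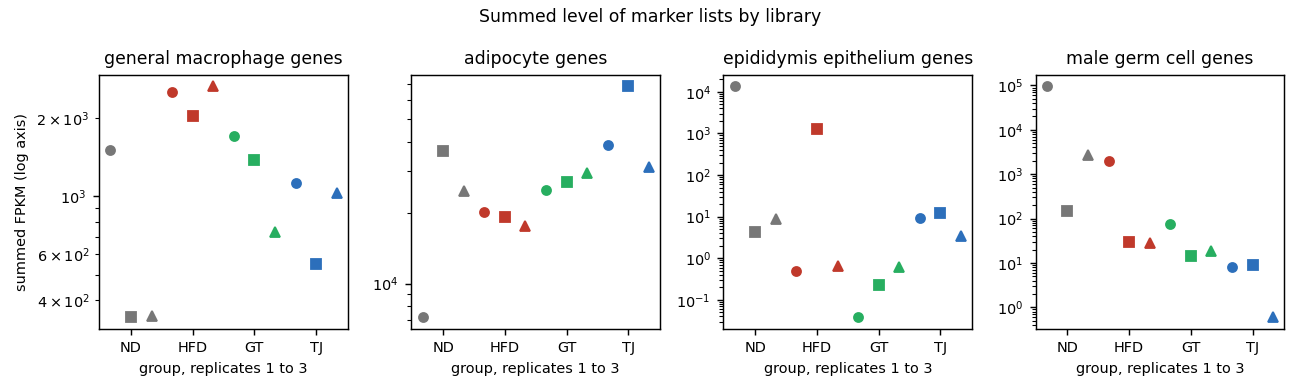
Summed FPKM (log axis) of the general macrophage, adipocyte, epididymis epithelium and male germ cell lists in each of the 12 libraries, with replicates 1 to 3 as circle, square and triangle. ND replicate 1 is the highest for germ cell genes (96901 FPKM) and the lowest for adipocyte genes (7216 FPKM).

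The sequences ahead of the start sites are shown for the 5 members in which a searched motif was found. RefSeq (GRCm38.p6) promoter windows were matched by symbol for 8 of the 10 members, not for Tyrobp or Atp6v0d2. The 250 bases before the start were searched on both strands for GGAAGT, the core bound by ETS factors such as PU.1, for TGANTCA, an AP-1 site, and for TCACGTGA and TCATGTGA, sites of the MiT/TFE factors that drive lysosome genes. No match of one motif overlapped a match of another in the member windows. GGAAGT was in 4 of the 8 member windows, of Spp1, Mmp12, Itgax and Lyz2, and in 20.0% of all 27025 windows. TGANTCA was in 2 of 8, of Trem2 and Itgax, and in 6.87% of all windows. The 2 MiT/TFE sites were in 0 of 8 windows, and in 0.8% and 0.84% of all windows. The windows below are written 5′ to 3′ in the direction of the gene, with the motif in capitals, and stop before the first annotated exon. They lie at chr17:48346151-48346400 (+) for Trem2, chr5:104434861-104435110 (+) for Spp1, chr9:7344147-7344380 (+) for Mmp12, chr7:128129300-128129546 (+) for Itgax and chr10:117282322-117282522 (-) for Lyz2.
Trem2: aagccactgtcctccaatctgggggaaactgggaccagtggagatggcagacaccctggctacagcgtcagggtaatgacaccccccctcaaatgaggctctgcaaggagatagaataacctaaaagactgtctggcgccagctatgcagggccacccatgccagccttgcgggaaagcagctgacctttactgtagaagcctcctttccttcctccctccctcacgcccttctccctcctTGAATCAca
Spp1: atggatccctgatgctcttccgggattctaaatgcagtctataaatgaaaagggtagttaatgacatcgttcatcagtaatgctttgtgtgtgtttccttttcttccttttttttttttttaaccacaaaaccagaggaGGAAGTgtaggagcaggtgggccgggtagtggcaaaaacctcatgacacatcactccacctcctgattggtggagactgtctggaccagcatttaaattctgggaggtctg
Mmp12: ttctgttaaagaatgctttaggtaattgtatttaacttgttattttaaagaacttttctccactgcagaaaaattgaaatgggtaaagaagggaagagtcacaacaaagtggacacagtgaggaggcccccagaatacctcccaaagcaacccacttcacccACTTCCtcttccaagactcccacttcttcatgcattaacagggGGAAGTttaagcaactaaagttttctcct
Itgax: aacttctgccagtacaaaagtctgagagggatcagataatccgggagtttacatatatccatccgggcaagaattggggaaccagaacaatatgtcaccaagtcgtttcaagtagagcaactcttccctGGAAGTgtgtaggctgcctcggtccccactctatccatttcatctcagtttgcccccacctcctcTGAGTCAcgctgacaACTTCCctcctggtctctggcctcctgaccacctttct
Lyz2: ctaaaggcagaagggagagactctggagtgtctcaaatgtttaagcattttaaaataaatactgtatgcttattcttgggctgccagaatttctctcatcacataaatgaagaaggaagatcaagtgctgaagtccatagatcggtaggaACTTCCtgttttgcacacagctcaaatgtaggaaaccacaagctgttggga

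In the Spp1 window the GGAAGT core lies 111 to 106 bases before the start. Mmp12 and Itgax hold it at 2 places each, once on either strand, and in Itgax the AP-1 site lies 56 to 50 bases before the start, between both cores. In Trem2 the AP-1 site ends 3 bases before the start. These matches of letters were not tested for binding.

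Trem2, the receptor (chromosome 17, 48346401 to 48354147, + strand, GRCm38), was at 7.58, 2.3 and 2.61 FPKM in the ND libraries and at 338, 232 and 365 FPKM in the HFD libraries. It was at 238, 169 and 59.2 FPKM in the GT group and at 158, 20.0 and 110 FPKM in the TJ group. Trem2 was low in every ND library and highest in the HFD group, and GT replicate 1 lay above HFD replicate 2. Its adaptor Tyrobp (chromosome 7, 30413760 to 30417585, + strand), which carries the signal of TREM2 and of several other receptors, was at 24.4, 35.5 and 28.7 FPKM in ND and at 536, 411 and 499 FPKM in HFD. Tyrobp was at 336, 251 and 127 FPKM in GT and at 294, 109 and 213 FPKM in TJ. For Tyrobp every HFD library lay above every GT and TJ library, and all of these lay above ND.

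Itgax (chromosome 7, 128129547 to 128150657, + strand) encodes CD11c, an integrin of dendritic cells and of the macrophages of crown-like structures. It was at 0.159, 2.23 and 3.28 FPKM in ND, at 102, 77.8 and 127 FPKM in HFD, at 56.6, 48.0 and 22.6 FPKM in GT and at 36.1, 5.41 and 28.0 FPKM in TJ. The HFD libraries did not overlap with those of any other group. Cd9 (chromosome 6, 125460266 to 125494791, - strand) encodes a tetraspanin of the cell surface and of vesicles, and many cell types express it. Its levels were 16.5, 33.0 and 39.7 FPKM in ND, 170, 126 and 181 FPKM in HFD, 110, 91.4 and 52.4 FPKM in GT and 96.0, 46.0 and 76.7 FPKM in TJ. Every HFD library of Cd9 lay above all others, and its HFD mean was 5.34 times its ND mean, the smallest such ratio of the 10 members. Exons of Cd9 share 218 bases with Gm26728 on the other strand.

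Spp1 (chromosome 5, 104435118 to 104441050, + strand) encodes osteopontin, a secreted glycoprotein that binds integrins and CD44. It was at 0.398, 0.218 and 9.17 FPKM in ND and at 66.3, 49.7 and 99.8 FPKM in HFD. Spp1 was at 31.6, 26.4 and 10.7 FPKM in GT and at 21.1, 1.16 and 16.8 FPKM in TJ, so that TJ replicate 2 lay below ND replicate 3. Exons of Spp1 share 309 bases with Gm42793 on the same strand. Mmp12 (chromosome 9, 7344381 to 7369499, + strand) encodes macrophage metalloelastase, which cleaves elastin. Its levels were 0.0959, 9.70 and 5.95 FPKM in ND, 970, 828 and 1379 FPKM in HFD, 441, 367 and 139 FPKM in GT and 301, 19.5 and 239 FPKM in TJ. Mmp12 was nearly undetected in ND replicate 1, and its HFD mean was the third highest of the 10 genes. Mmp12 shares 157 exon bases with Mmp1b on the other strand, which was listed at 0 in every library but HFD replicate 2, where it was at 0.283 FPKM.

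Lgals3 (chromosome 14, 47367751 to 47386160, + strand) encodes galectin-3, a lectin that binds galactosides and is recruited to damaged lysosomes. It was at 27.5, 101 and 70.8 FPKM in ND, at 1529, 1117 and 1627 FPKM in HFD, at 1464, 1052 and 486 FPKM in GT and at 972, 221 and 659 FPKM in TJ. GT replicate 1 was within the HFD range, and the TJ libraries lay below all HFD libraries. Lyz2 (chromosome 10, 117277331 to 117282321, - strand) encodes lysozyme, an enzyme of macrophages and neutrophils that splits bacterial cell walls. It was at 39.7, 430 and 321 FPKM in ND and at 2684, 1914 and 2757 FPKM in HFD. Lyz2 was at 1904, 1726 and 888 FPKM in GT and at 1678, 587 and 1399 FPKM in TJ. Lyz2 had the highest level of the 10 genes in every group.

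Gpnmb (chromosome 6, 49036546 to 49070929, + strand) encodes a transmembrane glycoprotein that is induced by lysosomal stress. It was at 2.32, 3.75 and 6.01 FPKM in ND, at 874, 699 and 958 FPKM in HFD, at 535, 432 and 143 FPKM in GT and at 284, 13.8 and 186 FPKM in TJ. Atp6v0d2 (chromosome 4, 19876841 to 19922605, - strand) encodes a subunit of the proton pump of lysosomes that is found in macrophages and osteoclasts. Its levels were 2.04, 1.42 and 1.16 FPKM in ND, 165, 164 and 196 FPKM in HFD, 120, 91.9 and 35.6 FPKM in GT and 72, 3.30 and 59.0 FPKM in TJ. For both genes the ND libraries were at a few FPKM and the HFD libraries did not overlap with any other group.

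The order of the group means was HFD, GT, TJ and ND, from high to low, for all 10 members. Without TJ replicate 2 the TJ means of Tyrobp, Cd9 and Lyz2 lay above their GT means. The libraries within the HFD, GT and TJ groups were also ordered largely alike. In ND they were not: replicates 1, 2 and 3 were the lowest for 7, 2 and 1 members and the highest for 2, 4 and 4. HFD replicate 2 was the lowest HFD library, GT replicate 3 the lowest GT library and TJ replicate 2 the lowest TJ library for 10 of 10 members each, and GT replicate 1 and TJ replicate 1 were the highest in their groups for 10 of 10. Within the HFD group the coefficient of variation was between 10.4% and 35.5%, in the GT group between 34.5% and 58.0% and in the TJ group between 34.6% and 84.7%. In the ND group it was between 18.9% and 156.9%. The Pearson correlation between members over the 12 libraries was between 0.82 and 0.99 for the 45 pairs, which share libraries and the difference between the groups. Over the 9 libraries on high-fat diets it was between 0.88 and 1.00.

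**Figure D2:**
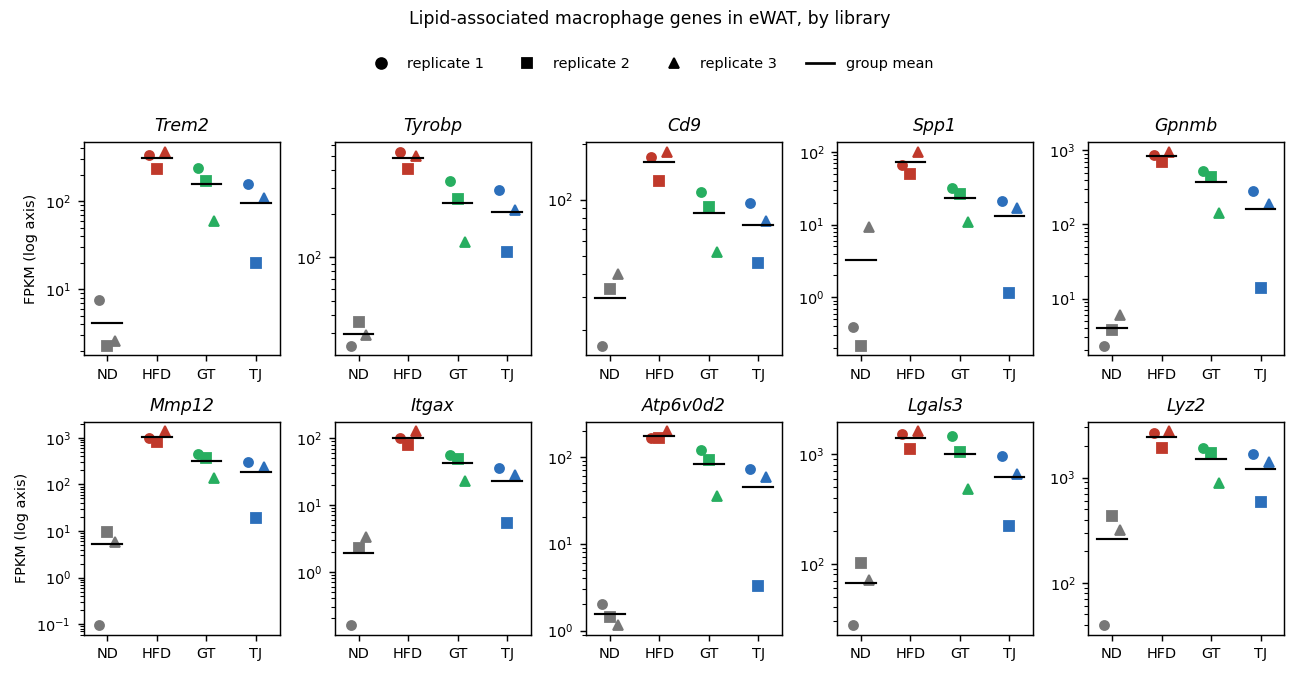
FPKM (log axis) of the 10 members in each library by group, with replicates 1 to 3 as circle, square and triangle and the group mean as a line. All 10 are lowest on average in ND and highest in HFD, and GT replicate 3 and TJ replicate 2 are the lowest of their groups throughout.

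HFD against ND asks what 12 weeks of high-fat feeding did to these genes. The HFD mean was 209.7 times the ND mean for Gpnmb, 201.7 times for Mmp12, 113.8 times for Atp6v0d2, 74.8 times for Trem2 and 54.0 times for Itgax, and all 10 members were separated, with every HFD library above every ND library, as were 20.5% of all 14430 genes tested in that direction. Of the 10 members, 7 were called higher (limma, Benjamini-Hochberg adjusted p under 0.05 and at least 1.5-fold), whereas 1.73% of all genes tested were called higher. The median difference of the members was 5.04 on the log2(FPKM + 1) scale, against 0.07 over all genes tested. On this scale Mmp12, with a difference of 7.90 ± 0.87 (SE, adjusted p = 0.0234), Gpnmb (7.45 ± 0.37, adjusted p = 0.00488), Atp6v0d2 (6.13 ± 0.27, adjusted p = 0.00488) and Trem2 (6.04 ± 0.46, adjusted p = 0.00831) held ranks 1, 2, 3 and 4 of all genes tested. With a pseudocount of 0.1 in place of 1 their ranks were 1, 3, 6 and 13. Cd9 (2.45 ± 0.41, adjusted p = 0.0518), Spp1 (4.76 ± 0.87, adjusted p = 0.067) and Lyz2 (3.77 ± 0.94, adjusted p = 0.156) did not pass.

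Without ND replicate 1, 10 of 10 were called higher, against 11% of 13661 genes, with differences from 2.09 to 7.18, and the HFD mean was then 126.8 times the ND mean for Trem2, 135.3 times for Mmp12 and 6.53 times for Lyz2. With the replicate number as a block, 0 of 10 were called, with adjusted p from 0.0594 to 0.203 and the same differences. In that paired fit 0 genes of the whole table were called, and 2239 (15.5%) had an unadjusted p under 0.05. Without ND replicate 2, ND replicate 3 or any 1 HFD replicate, HFD replicate 2 included, 4, 3 and 0 members were called, against 0.165%, 0.161% and 0% of all genes called higher. The exact permutation p of each member was 0.1, the smallest that 3 libraries against 3 can give.

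TJ against HFD asks how the herbal mixture changed these genes on the high-fat diet. The TJ mean was 17.6% of the HFD mean for Mmp12, 18.1% for Spp1, 19.1% for Gpnmb, 22.7% for Itgax, 25.6% for Atp6v0d2 and 30.9% for Trem2. The fold was smaller for Tyrobp (42.6% of the HFD mean), Lgals3 (43.4%), Cd9 (45.9%) and Lyz2 (49.8%). All 10 members were separated, with every TJ library below every HFD library, as were 31.4% of all 12807 genes tested in that direction. Of the members 3 of 10 were called lower, whereas 11.1% of all genes tested were called lower. The 3 called were Itgax, lower by 2.41 ± 0.63 (SE, log2(FPKM + 1) scale, adjusted p = 0.0414), Tyrobp, by 1.33 ± 0.35 (adjusted p = 0.0419), and Cd9, by 1.16 ± 0.29 (adjusted p = 0.038). The 7 others had adjusted p between 0.0512 for Spp1 and 0.0881 for Atp6v0d2. The median difference of the members was -2.25, against -0.14 over all genes tested. The latter was -0.02 after median-of-ratios scaling and 0.03 after quantile normalization, and the member median was then -2.12 and -2.28.

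The members were lowest in TJ replicate 2. There Gpnmb was at 1.63% of the HFD mean, Spp1 at 1.62%, Mmp12 at 1.84% and Atp6v0d2 at 1.88%, while Tyrobp was at 22.6% and Lyz2 at 23.9%. Its adipocyte genes summed to 68754 FPKM, against 38495 and 31134 in the other TJ libraries, and their part was not tested. Without TJ replicate 2, the TJ mean was 25.5% of the HFD mean for Mmp12, 27.8% for Gpnmb, 43.1% for Trem2 and 62.8% for Lyz2, the median difference was -1.31, and 8 of 10 members were called lower, against 9.53% of all genes. Without TJ replicate 1 or any 1 HFD replicate, 0 were called, as were 0% of all genes. Without TJ replicate 1 and HFD replicates 1, 2 and 3, in this order, 10, 7, 9 and 6 members had an unadjusted p under 0.05, against 32.8%, 38.2%, 30.2% and 29% of all genes.

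GT against HFD asks the same of green tea extract. The GT mean was 29.8% of the HFD mean for Mmp12, 31.8% for Spp1, 41.5% for Itgax and 43.8% for Gpnmb. It was 49.9% for Trem2 and 70.3% for Lgals3, the 2 members whose libraries overlapped between the groups, while the 8 others were separated, against 24.4% of all 12766 genes tested with every GT library below every HFD library. No member was called: 0 of 10 against 1.81% of genes called lower. At an unadjusted p under 0.05 in limma were 9 of 10 members and 29.3% of all genes. Adjusted p ran from 0.0575 for Mmp12 (-1.87 ± 0.43, log2(FPKM + 1) scale) to 0.317 for Lgals3 (-0.63 ± 0.39). The median difference was -1.21, against -0.12 over all genes. Without GT replicate 3 it was -0.72, and without GT replicate 1, 5 of 10 were called lower, against 5.7% of all genes. Without HFD replicate 2, 0 members were called, but so few genes of the whole table were called lower (0.0236%) that this count cannot be read for the members. Like the comparison of TJ with HFD, this one uses the 3 HFD libraries, so the 2 share their control samples.

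**Figure D3:**
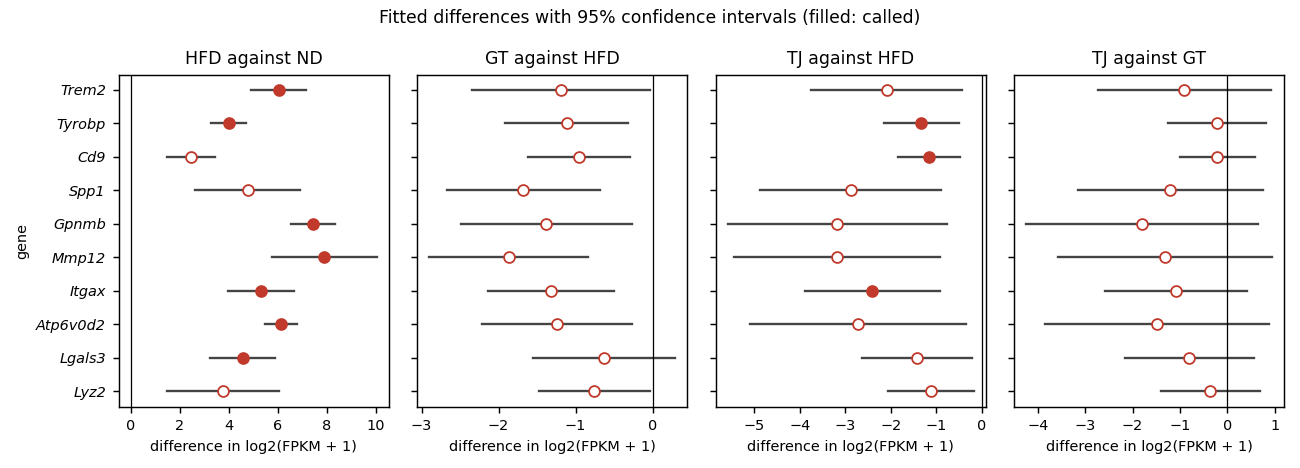
Difference in log2(FPKM + 1) of the 10 members with 95% confidence intervals in 4 comparisons from limma, with filled points where the gene was called. The differences of HFD against ND run from 2.45 to 7.90, those of GT and TJ against HFD lie below 0, and those of TJ against GT have intervals that reach across 0.

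TJ against GT compares both additions directly. The TJ mean was below the GT mean for all 10 members, at 0.436 to 0.863 times its size, but the libraries of the 2 groups overlapped for all 10, whereas every TJ library lay below every GT library for 14.9% of all 12187 genes tested. No member was called, 0 of 10 against 0.00821% of genes called lower, and 0 had an unadjusted p under 0.05, against 24.6% of all genes. The differences ran from -1.80 ± 1.05 for Gpnmb (95% confidence interval -4.24 to 0.64) to -0.21 ± 0.34 for Cd9 (-0.996 to 0.58). The median difference was -0.998, and -0.11 without TJ replicate 2. Without that library the TJ means of Tyrobp (253 FPKM), Cd9 (86.3 FPKM) and Lyz2 (1539 FPKM) lay above their GT means (238, 84.5 and 1506 FPKM).

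Both treated groups stayed above ND in their means. The TJ mean was 2.45 times the ND mean for Cd9 and 40.1 times for Gpnmb, the lowest and highest of the 10, and 9 of 10 members were separated, all but Spp1, against 12.5% of genes with every TJ library above every ND library. The GT mean was 2.84 times the ND mean for Cd9 and 91.9 times for Gpnmb, with all 10 separated, against 14.6% of genes with every GT library above every ND library. No member was called in either comparison, where 0% of 14251 and 0% of 14249 genes were called higher, and 9 and 10 members had an unadjusted p under 0.05 in limma, against 10.8% and 10.6% of all genes. Without ND replicate 1, the TJ and GT means were 39.2 and 63.3 times the ND mean for Trem2 and 33.1 and 75.8 times for Gpnmb, and in the fits of the 5 remaining libraries 0 of 10 members were called in either comparison, against 0% and 0.0451% of all genes called higher, with a lowest adjusted p of 0.113 and 0.0515. In 1 fit of all 11 libraries other than ND replicate 1, chosen after seeing the data, in which all 4 groups share 1 estimate of the spread, 8 of 10 were called higher in TJ than in ND and 8 of 10 in GT than in ND, against 8.24% and 3.66% of all genes. The planned fit of all 12 libraries called 1 and 7 members higher, against 0.126% and 0.849%. The GT and ND replicate numbers also paired by the check used, and with the replicate block 0 were called. Over all 4 groups, 8 of 10 members differed (F-test of limma, adjusted p from 0.0232 to 0.0382), against 3.77% of 13935 genes, and Spp1 (0.0687) and Lyz2 (0.0676) did not pass. Without ND replicate 1 all 10 passed, against 31.5% of all genes, while 0 passed with the replicate block (0.00718% of all genes), without HFD replicate 1, 2 or 3 (0.00717%, 0% and 0%) or without GT replicate 2 (0.00715%).

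Partner genes of the members were read from the same fits. Their counts stand against 1.73% of all genes called higher in HFD than in ND (11% without ND replicate 1) and 11.1% called lower in TJ than in HFD (9.53% without TJ replicate 2). With the replicate number as a block, 0 genes of the whole table were called in HFD against ND, the partner genes included. Of 10 genes of TREM2 signalling and shedding, 5 were called higher in HFD than in ND, with a median difference of 2.23 on the log2(FPKM + 1) scale, and 8 were called lower in TJ than in HFD, with a median of -1.45. Leaving out ND replicate 1 gave 10 of 10 called higher in HFD (median 2.42), and without TJ replicate 2, 9 of 10 lower in TJ (median -0.95). Lat2, an adaptor of immune receptors, rose by 4.39 ± 0.30 in HFD (adjusted p = 0.00683) and Inpp5d, the lipid phosphatase SHIP1, fell by 1.87 ± 0.34 in TJ (adjusted p = 0.0248). Syk, the kinase that TYROBP recruits, was at 8.39 FPKM in ND, 64.3 FPKM in HFD and 25.7 FPKM in TJ as group means and was called in both comparisons. Adam17, a protease that sheds TREM2, was called lower in TJ (-1.47 ± 0.35, adjusted p = 0.0361). Hcst, the sister adaptor DAP10, had the smallest difference in HFD (1.19 ± 0.36, adjusted p = 0.25) and differed by 0.07 ± 0.25 between TJ and HFD (adjusted p = 0.832).

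Of 7 other receptors that pair with TYROBP, 4 were tested. Cd300lb, an activating receptor of myeloid cells, was called higher in HFD than in ND, with a difference of 4.58 ± 0.67 (adjusted p = 0.0391), and Clec5a was called lower in TJ than in HFD (-1.10 ± 0.24, adjusted p = 0.0303). Clec5a was a low gene: it averaged under 1 FPKM over the TJ and ND libraries and was not tested in TJ against ND. Trem1, Trem3 and Siglech were under 1 FPKM on average in the tested libraries. When ND replicate 1 was left out, 2 of the 4 were called higher in HFD, and without TJ replicate 2, 2 were called lower in TJ.

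Of 17 other genes of the lipid-associated program, 2 were called higher in HFD, Ctss (5.27 ± 0.79, adjusted p = 0.0413), a lysosomal cysteine protease, and Cstb (2.78 ± 0.30, adjusted p = 0.022), an inhibitor of such proteases. Without ND replicate 1, 11 of the 17 were called higher in HFD, against 11% of all genes, and Apoe lower. In TJ against HFD, 3 of the 17 were called lower, against 11.1% of all genes: Lipa, the lysosomal acid lipase (-2.18 ± 0.53, adjusted p = 0.0372), Ctsd, a lysosomal aspartic protease (-1.08 ± 0.23, adjusted p = 0.0294), and Plin2, a coat protein of lipid droplets (-1.01 ± 0.21, adjusted p = 0.0292). Called higher in TJ were 2 of the 17, against 7.41% of all genes: Acp5, a phosphatase (1.03 ± 0.18, adjusted p = 0.0247), and Fabp4, a fatty acid carrier that adipocytes also express strongly (1.22 ± 0.31, adjusted p = 0.039). Apoe, a lipid carrier, was not called there (1.10 ± 0.34, adjusted p = 0.0579). Acp5 and Apoe were both called higher in GT than in HFD, against 1.83% of all genes. Neither was called without GT replicate 3, where so few genes were called higher (0.0156%) that this cannot be read for them. Without TJ replicate 2, 7 were called lower in TJ and 3 higher, Apoe among them, against 9.53% and 6.19% of all genes.

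The receptors of osteopontin held 1 call of 7 in HFD against ND, Cd44 (4.36 ± 0.61, adjusted p = 0.0345), and 5 calls of 7 lower in TJ, with Cd44 the largest (-2.58 ± 0.60, adjusted p = 0.0346). Itgb5 differed least (-0.01 ± 0.13, adjusted p = 0.959). Among 4 integrins related to Itgax, Itgb2, its beta chain, was called higher in HFD (5.01 ± 0.81, adjusted p = 0.0475), and Itgam and Itgad were called lower in TJ. Itgal, found mainly on lymphocytes, was at 1.31, 1.97, 2.26 and 2.14 FPKM as the ND, HFD, GT and TJ means and was not called. Of 16 other subunits of the V-ATPase, 2 were called higher in HFD, Tcirg1 (3.09 ± 0.35, adjusted p = 0.0241) and Atp6v0a1 (2.08 ± 0.34, adjusted p = 0.0478), and 4 lower in TJ, of which Atp6v1a had the largest difference (-1.62 ± 0.42, adjusted p = 0.0418). Atp6v0d1, the ubiquitous counterpart of Atp6v0d2, was at 52.9, 87.0, 76.9 and 88.1 FPKM as group means and was not called, while the Atp6v0d2 mean in HFD was 113.8 times that in ND. Of the 4 MiT/TFE genes, 0 were called higher in HFD, with 4 of 4 above 0, and Mitf (-1.22 ± 0.27, adjusted p = 0.0313) and Tfec were called lower in TJ. Tfec averaged under 1 FPKM over the TJ and ND libraries and was not tested in TJ against ND. In the fit without ND replicate 1, 3 of the 7 osteopontin receptors, 3 of the 4 integrins, 12 of the 16 V-ATPase subunits and 2 of the 4 MiT/TFE genes were called higher in HFD, where the share over all genes had also gone up, from 1.73% to 11%. Without TJ replicate 2, 5, 3, 5 and 1 genes of these lists, in the same order, were called lower in TJ, against 9.53% of all genes.

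Relatives of Lgals3 and Cd9 were compared too. Of 5 other galectins, none was called in HFD, with limma differences from -0.98 for Lgals4 to 1.29 for Lgals9, and Lgals4 was called higher in TJ than in HFD (1.42 ± 0.32, adjusted p = 0.032). Lgals1 was at 647, 884, 1025 and 1089 FPKM as the ND, HFD, GT and TJ means, where Lgals3 was at 66.5, 1424, 1001 and 617 FPKM. Of 6 other tetraspanins, Cd37 was called lower in TJ, and Cd53 had the largest difference in HFD (3.76 ± 0.78, adjusted p = 0.0943). Of 6 genes of macrophage fusion and osteoclasts, 3 were tested, of which Dcstamp, needed for cell fusion, rose by 2.97 ± 0.32 in HFD and fell by 1.73 ± 0.42 in TJ (adjusted p = 0.0208 and 0.0361). The difference of Acp5 was 0.36 in HFD (adjusted p = 0.764), and against the lower call of Dcstamp it was called higher in TJ than in HFD, by 1.03 (adjusted p = 0.0247). Ctsk, a collagen-degrading protease, was called higher in HFD (5.05 ± 0.78, adjusted p = 0.045) and not in TJ (-2.03, adjusted p = 0.0503). With ND replicate 1 left out, 0 of the 5 galectins, 3 of the 6 tetraspanins and 2 of the 3 fusion genes were called higher in HFD. Without TJ replicate 2, Lgals4 was still called higher in TJ, and 2 tetraspanins and 2 fusion genes were called lower.

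**Figure D4:**
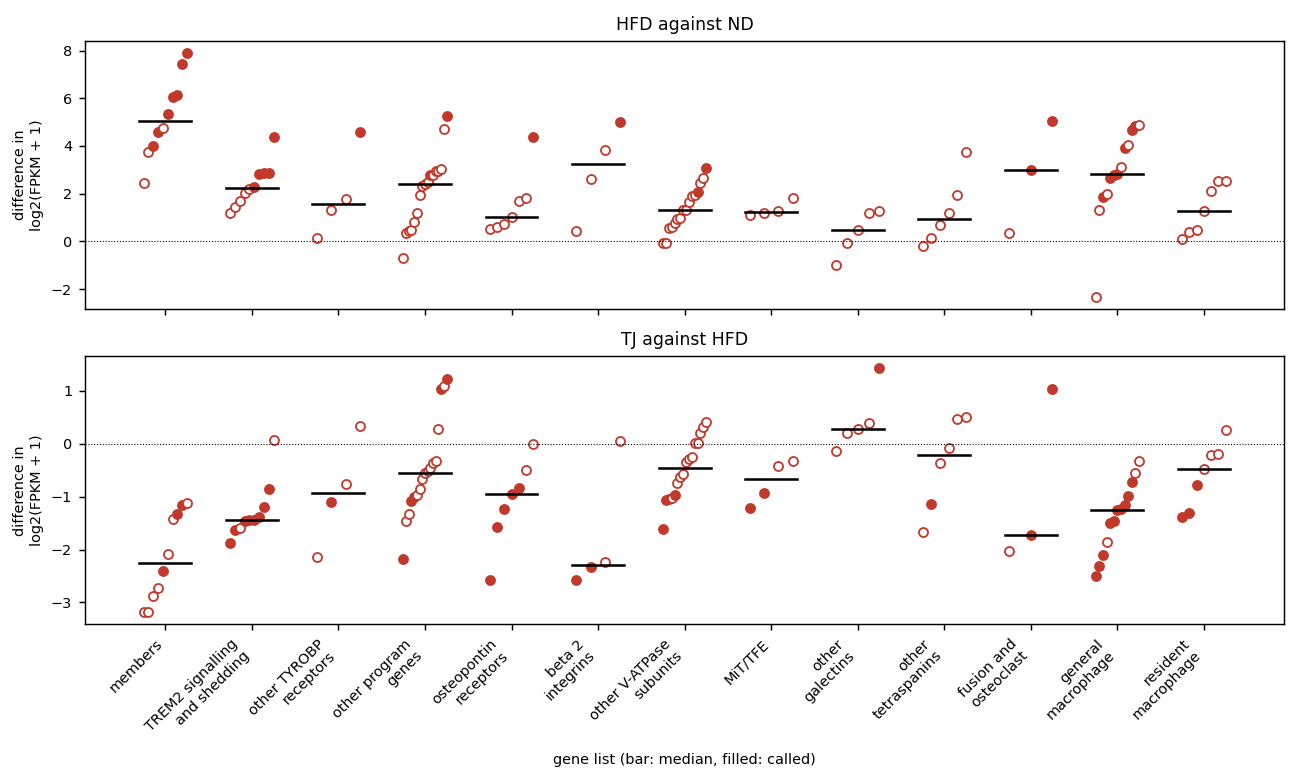
Difference in log2(FPKM + 1) of each tested gene by list for HFD against ND and for TJ against HFD, with filled points where the gene was called and a bar at the list median. The member medians are 5.04 and -2.25, and the general macrophage list has medians of 2.83 and -1.26.

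Lyz1, the neighbour and near copy of Lyz2 whose annotated transcript is 92.0% identical to it, had another order of levels. It was at 5.91, 68.4 and 43.3 FPKM in ND, at 26.5, 20.0 and 14.3 FPKM in HFD, at 39.4, 33.0 and 30.3 FPKM in GT and at 42.4, 44.0 and 39.6 FPKM in TJ. Lyz1 was not called in HFD against ND with all 6 libraries and was called lower in HFD without ND replicate 1. It was called higher in TJ than in HFD with and without TJ replicate 2 (with it 1.06 ± 0.22 on the log2(FPKM + 1) scale, adjusted p = 0.0279). The 2 genes can share reads, so their values are uncertain to the extent that the multiread correction divided them.

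General macrophage genes had medians of the same sign as the members, and smaller. Of 13 such genes, 7 were called higher in HFD than in ND, against 1.73% of all genes, and 10 lower in TJ than in HFD, against 11.1%, with medians of 2.83 and -1.26. In GT against HFD 0 were called (median -0.84), where only 1.81% of all genes were called lower. In the absence of ND replicate 1, 11 were called higher in HFD (median 2.44), against 11% of all genes, and without TJ replicate 2, 11 lower in TJ (median -0.98), against 9.53%. Aif1 was at 472 FPKM as the ND mean and 18.1 FPKM as the HFD mean, an ND mean that rests on ND replicate 1. Of 8 genes of resident macrophages, 7 were tested, 0 were called in HFD against ND, and Folr2, Mrc1 and Lyve1 were called lower in TJ, with a median of -0.49. Of the 7, 3 were called higher in HFD and Lyve1 lower without ND replicate 1, and without TJ replicate 2 the same 3 were called lower in TJ (median -0.30). Cd163, a scavenger receptor of resident macrophages, was at 12.5, 12.4, 15.3 and 10.6 FPKM as the 4 group means.

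To see whether the members moved with the macrophage genes, the mean log2(FPKM + 1) of the 13 general macrophage genes was subtracted in each library, as a description without a test. Relative to these genes, the median member differed by 3.00 for HFD minus ND, by -0.77 for TJ minus HFD and by -0.29 for GT minus HFD, on the log2 scale, with pooled standard deviations of 0.27, 0.80 and 0.21. The difference for TJ was -0.14 without TJ replicate 2, and that for GT was -0.13 without GT replicate 3. In HFD against ND, Mmp12 gained 5.09, Gpnmb 4.64, Atp6v0d2 3.31 and Trem2 3.22 on this relative scale, while Tyrobp gained 1.18, Lyz2 0.95 and Cd9 changed by -0.36. Without ND replicate 1 these were 4.48 for Mmp12, 4.75 for Gpnmb, 3.83 for Atp6v0d2, 4.04 for Trem2, 1.44 for Tyrobp, 0.27 for Lyz2 and -0.35 for Cd9. In TJ against HFD, the relative difference was -1.80 for Mmp12, -1.80 for Gpnmb, -1.502 for Spp1, -1.34 for Atp6v0d2, -1.02 for Itgax and -0.71 for Trem2, while Tyrobp differed by 0.05, Lgals3 by -0.04, Cd9 by 0.23 and Lyz2 by 0.27. Without TJ replicate 2 it was -0.95 for Mmp12, -0.87 for Gpnmb, -0.83 for Spp1, -0.41 for Atp6v0d2, -0.63 for Itgax and -0.21 for Trem2, while Tyrobp differed by 0.06, Lgals3 by 0.18, Cd9 by 0.13 and Lyz2 by 0.34.

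**Figure D5:**
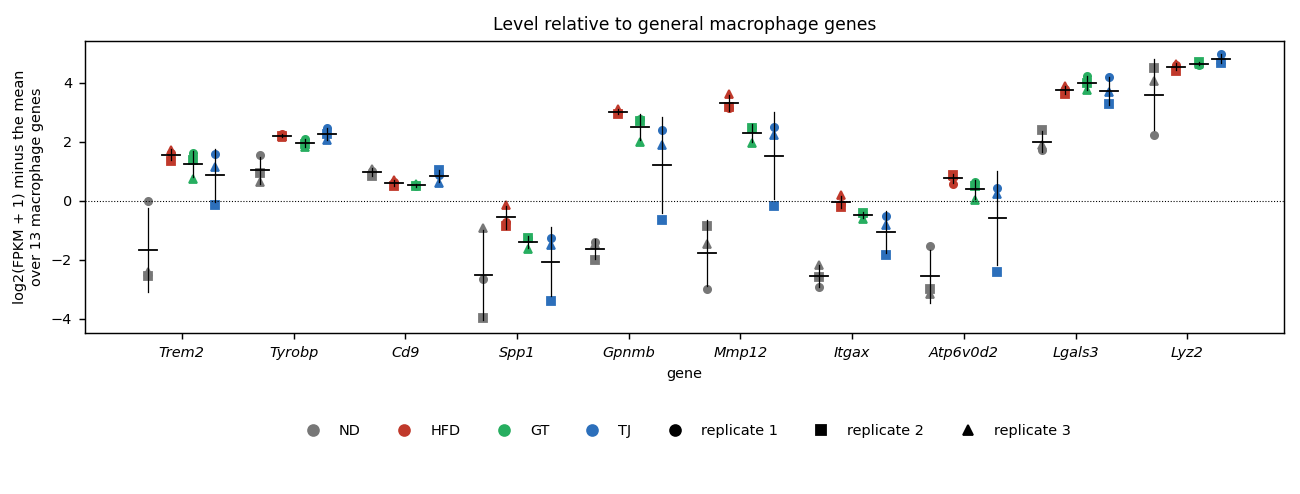
log2(FPKM + 1) of each member minus the mean over 13 general macrophage genes in the same library, with the group mean and its standard deviation as bars. Mmp12, Gpnmb, Atp6v0d2 and Trem2 lie higher in HFD than in ND by 3.22 to 5.09. TJ replicate 2 lies below the other TJ libraries for every member but Tyrobp and Cd9.

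Members left out, the genes most like the mean standardised profile of the members over the 12 libraries, among 13831 genes averaging 1 FPKM or more, were Lgmn, a lysosomal protease (Pearson r = 0.998), Cd300a, an inhibitory receptor (0.997), Arhgap25 (0.997), Dpep2 (0.997), Atf3, a stress-induced transcription factor (0.996), Slamf8 (0.996), Tpcn2, a lysosomal ion channel (0.995), Cd68, a lysosomal membrane protein (0.994), the cytokine gene Tnf (0.994) and Spi1, which encodes PU.1 (0.994). Over the 9 libraries on high-fat diets these values were 0.983 to 0.997. The members, which are part of that mean, held ranks among all genes from 2 (Itgax, r = 0.997) to 413 (Spp1, r = 0.932), with Trem2 at 238 and Lyz2 at 368. The points share libraries and the difference between ND and the other groups. Lgmn was at 48.5, 402, 249 and 183 FPKM and Atf3 at 2.85, 132, 59.2 and 35.0 FPKM as the ND, HFD, GT and TJ means, the same order of groups as the members. Tnf was low, at 0.125, 2.07, 1.48 and 1.22 FPKM as these means. Cd68 and Spi1 also belong to the list of general macrophage genes.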

How the data were processed

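Libraries were made from eWAT RNA with 3 libraries per group, and the authors mapped the reads with STAR (2.4.0 per the submitters' processing notes) and computed FPKM with Cufflinks 2.1.1, correcting for multireads and fragment bias, after base calling with CASAVA 1.8.2. The deposited FPKM values, already scaled for length and depth, were used as they stand, and no counts were used here. The methods name a human genome, but all identifiers are mouse. GENCODE mouse release 21 (GRCm38) named 22671 of 23474 genes and left 803 unnamed.

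Groups were compared with limma 3.58.1 (R 4.3.3; lmFit, eBayes with trend) on log2(FPKM + 1) over the 6 libraries of 2 groups, for genes averaging 1 FPKM or more over them. Called genes had a Benjamini-Hochberg adjusted p below 0.05 and changed 1.5-fold or more. This scale understates the change of low genes. All 10 members had a mean of at least 1 FPKM in every group. Single genes were also compared with two-sided exact permutation tests (scipy). The members and lists were chosen with earlier results of these data known. The named genes are all members, list genes with the largest and smallest difference or of short lists, and the 10 genes most like the members, though not every gene this covers is named. Those named for other reasons (Syk, Adam17, Plin2, Ctsd, Cstb, Fabp4, Cd163, Folr2, Lyve1, Atp6v0d1, Atp6v0a1) were chosen after their values were seen.

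Alternatives were a pseudocount of 0.1, no filter or 5 FPKM, median-of-ratios and quantile scaling, 12 or 11 libraries in the fit, a replicate block, removal of a trend with transcript length, no fold minimum and each library left out. Replicate numbers were taken to pair libraries where deviations from the group means correlated over 0.1 for each number, which held for HFD with ND (0.55, 0.34 and 0.12) and for GT with ND (0.22, 0.12 and 0.15). The highest correlation among all HFD and ND libraries, 0.63, joined different numbers, HFD replicate 3 with ND replicate 2. Nothing in the labels says what a number shares. The p-values measure the spread between these libraries, which may in part be technical. Fragments per gene can only be approximated from the estimated depth, since the FPKM were corrected for multireads and bias, so no counting interval was computed and precision was judged by that spread.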

Additional observations from a re-analysis of the deposited data

How the results depend on the processing

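The members kept their direction in all settings for HFD against ND, TJ against HFD, GT against HFD, TJ against ND and GT against ND. The numbers called did not hold. Beside each count stands the share of all genes called in the same fit and direction. For HFD against ND 7 members were called (1.73%), 0 with the replicate block (0%) and 0 to 10 with 1 library left out (0% to 11%). For TJ against HFD 3 were called (11.1%), 0 without a filter (0.904%) or with all 12 libraries in the fit (0%), 5 at a mean of at least 5 FPKM (13%), 7 after quantile normalization (8.75%), 8 in the fit of 11 libraries without ND replicate 1, chosen after seeing the data (14%), 8 with the replicate block (6%) and 0 to 8 with 1 library left out (0% to 16.8%). For GT against HFD 0 were called (1.81%), 2 at 5 FPKM (3.13%), 1 after quantile normalization (1.28%) and 0 to 5 with 1 library left out (0.0233% to 5.7%). For TJ against ND and GT against ND 0 were called (0% and 0%), 1 and 7 with all 12 libraries (0.126% and 0.849%), 8 and 8 with 11 (8.24% and 3.66%), and 0 to 1 and 0 to 7 with 1 library left out, the highest without ND replicate 2 (0.139% and 0.41%). Over the 4 groups 8 differed (3.77%), 0 with the replicate block (0.00718%) and 0 to 10 with 1 library left out (0% to 31.5%). For TJ against GT 0 were called in every setting, but with 1 library left out the difference ran from -0.61 to 0.18 for Tyrobp, from -0.514 to 0.087 for Cd9 and from -0.70 to 0.10 for Lyz2. The level relative to macrophage genes in HFD minus ND, 3.00, was 2.38 with Ptprc as the reference and 2.57 without Aif1 (chosen after seeing the data). The list counts with ND replicate 1, TJ replicate 2 or GT replicate 3 left out were also chosen after seeing the data. With a pseudocount of 0.1, Trem2 went from rank 4 to 13 in HFD against ND. The cause of these changes was not tested, except that a library left out leaves fewer samples.

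Over all genes, 255 were called for HFD against ND (0 with the block, 2600 at most), 2366 for TJ against HFD (0 to 3412) and 464 for GT against HFD (1 to 1107). Of the 2366, 1417 were lower, against 1082 of 2367 after median-of-ratios scaling and 1121 of 2663 after quantile normalization. For GT against HFD 231 of 464 were lower, against 145 of 544 and 164 of 573. Where the replicate block was not named, it changed no count of members called. The numbers of TJ and HFD were not found to pair the libraries (-0.03, -0.05 and 0.23).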

Other observations

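Markers of other cell types were also followed in TJ against HFD (limma, log2(FPKM + 1) scale). Over all genes 7.41% were called higher and 11.1% lower. Of 10 adipocyte genes, 7 were called higher, and Cfd, a serine protease secreted by adipocytes, rose by 3.36. Lep, which encodes the hormone leptin, was the 1 adipocyte gene with a difference below 0 (-0.96, adjusted p = 0.111). Of 8 endothelial genes, 3 were called higher, with Cldn5, a tight junction protein, at a difference of 1.69. Of 8 fibroblast genes, 5 were called lower, and Col3a1, a fibrillar collagen, fell by 1.89. Without TJ replicate 2, 6 adipocyte and 3 endothelial genes were called higher and 6 fibroblast genes lower, against 6.19% and 9.53% of all genes. In GT against HFD, 4 adipocyte genes were called higher and 2 fibroblast genes lower, against 1.83% and 1.81% of all genes. Without GT replicate 3, 0 of both were called, against 0.0156% of all genes called higher and 0.0233% lower. With so few calls in the whole table, these counts cannot be read for the lists.

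The summed level of 8 neutrophil genes was 5.46 to 11.9 FPKM in ND, 57.3 to 66.1 in HFD, 38.0 to 80.8 in GT and 19.5 to 79.9 in TJ. Of 8 dendritic cell genes, which share Itgax with these macrophages as a surface marker, the sum was 22.8 to 27.3 FPKM in ND, 17.3 to 24.3 in HFD, 24.5 to 27.7 in GT and 30.2 to 35.5 in TJ. The T cell sum was 7.58 to 17.6 FPKM over all libraries and the B cell sum 3.59 to 16.6 FPKM, with Ms4a1 listed at 0 in all. Mesothelial genes summed to 271 FPKM in ND replicate 1, the library with high germ cell and epididymis sums. They summed to 32.0 and 110 FPKM in ND replicates 2 and 3 and to 4.54 to 38.1 FPKM in the other groups. HFD replicate 2, at 38.1 FPKM, lay above ND replicate 2.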
